A study of Homo sapiens with 12 samples.

Results

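The S100 genes encode small calcium-binding proteins of the EF-hand type. The rule took every probe annotated to 10 named members, S100A2, S100A4, S100A6, S100A7, S100A8, S100A9, S100A10, S100A14, S100A16 and S100P, and found 12 probes among the 47323 on the array. Of these, 11 probes of 9 genes were detected on at least 2 of the 12 arrays and were tested among 11926 genes. S100A7 was detected on 0 arrays. The cells were HBEC, a line of human bronchial epithelial cells, made to express the L858R, E746-E750 or WT form of the growth factor receptor EGFR stably. L858R and E746-E750 are the names of common activating changes in the EGFR kinase domain in lung cancer. Each line was held for 24 h at 0.1% oxygen (hypoxic) or kept at 21% oxygen (aerobic), in serum-free medium that gave all groups EGF at 0.2 ng/mL and pituitary extract at 30 μg/mL. The groups were hypoxic and aerobic L858R cells, hypoxic and aerobic E746-E750 cells, and hypoxic and aerobic WT cells, with 2 arrays each, and total RNA was read on Illumina bead arrays. The labels do not give the vector or promoter of the receptor, say whether a line is 1 clone, say what EGFR of their own the cells keep, or say whether replicates were separate cultures, so the p-values measure the spread between these samples only. The series title concerns how EGFR mutations alter radiation resistance in low oxygen, and the S100 genes are described here across the design.

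S100 proteins work as dimers, and on binding calcium most of them expose a surface that grips partner proteins such as annexins, cytoskeletal proteins or p53. S100A8 and S100A9 pair as calprotectin, which is released by neutrophils and by stressed epithelium, sequesters metals that microbes need and signals through the receptors AGER and TLR4. In stratified and airway epithelium, S100A2 is a basal-cell member and S100A7, S100A8 and S100A9 are known for their induction in inflamed or squamous tissue, while S100A4, S100A6, S100A10 and S100P are often studied in tumour cell migration. In the RefSeq annotation, 9 of the members lie on chromosome 1, where their order along the chromosome is S100A10, S100A9, S100A8, S100A7, S100A6, S100A4, S100A2, S100A16 and S100A14. S100P lies on chromosome 4.

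The promoter windows of 4 of the members that changed are shown because all 4 hold the TATA-box letters TATAAA shortly before the transcription start. Each run gives the 250 bases before the start, 5′ to 3′ on the gene's own strand, from RefSeq on GRCh38.p14, with TATAAA in capitals. S100A4 is at chr1:153545807-153546056 on the minus strand, S100A8 at chr1:153391074-153391323 on the minus strand (window 2 of its 3 annotated starts), S100A9 at chr1:153357604-153357853 on the plus strand and S100P at chr4:6693628-6693877 on the plus strand.
S100A4: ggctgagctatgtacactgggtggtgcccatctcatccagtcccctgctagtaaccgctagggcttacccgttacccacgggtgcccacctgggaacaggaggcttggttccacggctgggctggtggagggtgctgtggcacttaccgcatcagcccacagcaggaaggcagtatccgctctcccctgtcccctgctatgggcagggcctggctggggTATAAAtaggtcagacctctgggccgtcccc
S100A8: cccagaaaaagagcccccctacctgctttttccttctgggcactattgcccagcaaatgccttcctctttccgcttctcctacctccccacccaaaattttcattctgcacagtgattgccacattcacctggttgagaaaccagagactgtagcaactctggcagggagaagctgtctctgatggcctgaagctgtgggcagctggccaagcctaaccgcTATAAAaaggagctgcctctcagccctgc
S100A9: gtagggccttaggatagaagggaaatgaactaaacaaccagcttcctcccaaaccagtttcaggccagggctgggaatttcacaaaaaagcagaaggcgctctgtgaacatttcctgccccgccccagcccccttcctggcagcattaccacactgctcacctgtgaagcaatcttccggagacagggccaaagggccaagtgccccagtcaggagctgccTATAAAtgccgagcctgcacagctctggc
S100P: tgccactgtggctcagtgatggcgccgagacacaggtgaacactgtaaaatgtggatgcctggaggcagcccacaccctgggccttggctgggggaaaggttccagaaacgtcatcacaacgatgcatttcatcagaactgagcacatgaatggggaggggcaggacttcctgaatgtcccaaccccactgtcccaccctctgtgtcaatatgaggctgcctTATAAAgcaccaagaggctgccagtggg
The first base of TATAAA lay 31 bases before the start in S100A4, 29 in S100A8 and in S100A9, and 28 in S100P. The undetected S100A7 also held it, 28 bases before its start. S100A2, which was also called in low oxygen, did not hold it in either of its windows. Of the other S100A8 windows, window 1 held it 126 bases before its start and window 3 did not hold it. Of 34943 windows of this length, 10.8% held TATAAA on either strand and 6.82% held it on the gene's own strand. The windows shown were picked for holding it, so their number is not set against these shares. ACGTG, 1 form of the low-oxygen response core, was searched on both strands. It occurred in 1 window of S100A16 and in no window of the other members, against 18.5% of all windows. The GCGTG form of this core was not searched, so its absence cannot be read from this. TGANTCA, the AP-1 site, which reads the same on both strands, occurred in 1 window of S100A2, 52 bases before the start, against 6.59% of all windows. The 3 motifs were searched without overlap between them, and such matches describe letters only.

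The arrays differed in quality in ways that touch the S100 values. Detected probes per array numbered 14159 to 18229. Replicate 2 of hypoxic L858R stood apart with 14159 detected probes and correlated with replicate 1 at 0.849, whereas the other pairs correlated at 0.983 to 0.997. The difference between the 2 brightest probes of a gene was more than 1 log2 unit away from its mean on the aerobic arrays for 18.1% and 45.8% of 3213 two-probe genes on the hypoxic L858R arrays, 20.2% and 27.3% on the hypoxic E746-E750 arrays, 3.08% and 2.68% on the hypoxic WT arrays, and at most 0.0311% on the aerobic arrays, from which that mean was taken. Of the 9 tested members, 7 had no second probe to check them against. Low-oxygen genes rose in all 3 lines, 9 of 9 tested in L858R and 8 of 9 in both E746-E750 and WT, where 16.1%, 16% and 5.37% of all genes were called higher; NDRG1, a stress gene, was higher by 2.29, 2.33 and 1.85 log2 units in L858R, E746-E750 and WT, and VEGFA, the angiogenic growth factor, by 3.002, 2.94 and 1.86. EGFR, the introduced gene, has 2 kept probes, which disagreed. The brightest did not pass in any of the 9 comparisons. The other was higher in hypoxic than in aerobic WT cells by 1.29 ± 0.31 log2 (limma adjusted p = 0.0367) and differed from hypoxic WT cells by -2.30 ± 0.31 in hypoxic L858R (adjusted p = 0.00155) and -2.55 ± 0.31 in hypoxic E746-E750 cells (adjusted p = 9e-04). The positions of these probes in EGFR were not examined here. All 9 basal epithelial markers with a probe, KRT5 and KRT14 among them, were detected on all 12 arrays, while 5 of 8 fibroblast markers and 5 of 7 secretory and ciliated markers were detected on 0.

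**Figure D1:**
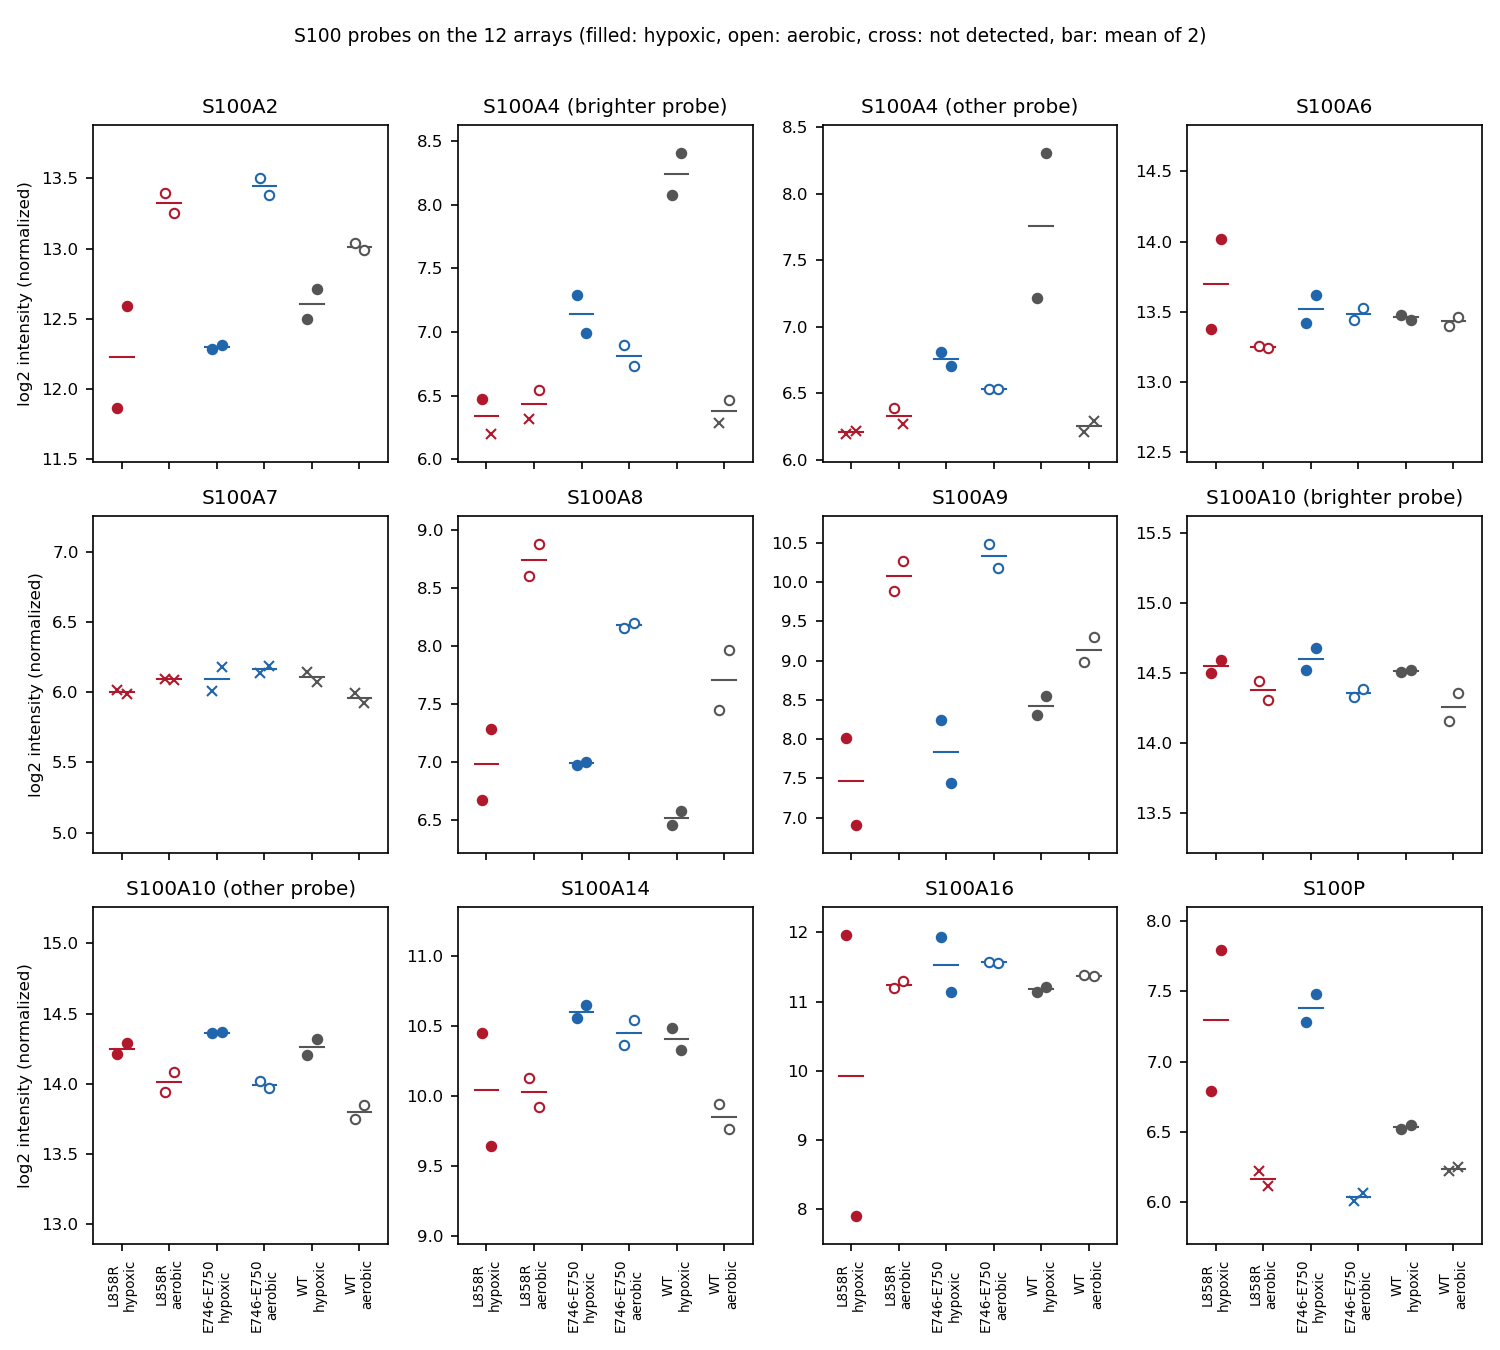
Normalized log2 intensity (vertical axes, each panel with its own range) of the 12 S100 probes on every array, by EGFR form and oxygen; filled points are hypoxic arrays, open points aerobic arrays, crosses arrays without detection and bars means of 2. S100A8, S100A9 and S100A2 lie lower on every hypoxic array than on any aerobic one, S100P lies higher, S100A4 stands out in hypoxic WT cells, and replicate 2 of hypoxic L858R is at 7.90 for S100A16.

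Low oxygen changed 4 of the 9 tested members in L858R cells, 4 in E746-E750 cells and 2 in WT cells. All values below are normalized log2 intensities of a member's brightest probe, and a change counts as called when limma's Benjamini-Hochberg adjusted p over all genes is under 0.05. In L858R cells 1 member rose and 3 fell, where 28.7% of all genes tested were called, 16.1% higher and 12.6% lower. In E746-E750 cells 1 rose and 3 fell, against 27.1% of all genes, 16% higher and 11.1% lower. The member that rose in both mutant lines was S100P. It was detected on hypoxic arrays only, so it entered the test through the groups where it was high, and its rise is partly fixed by that filter. In WT cells 1 rose and 1 fell, against 13.1% of all genes, 5.37% higher and 7.71% lower. A count of 9 members gives only a coarse share beside these backgrounds. The median change over members was -0.10, 0.04 and 0.03 log2 in L858R, E746-E750 and WT, beside 0.09, 0.10 and -0.03 for all genes tested. The unlike pair of hypoxic L858R arrays enters the spread that all groups share. With either of those 2 arrays left out, S100A2, S100A9, S100A14 and S100P passed in WT cells as well, 6 members in all, with the WT differences themselves unaltered. In those fits 40.3% of all genes were called for WT, and the single hypoxic L858R array left takes its spread from the other 5 groups.

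**Figure D2:**
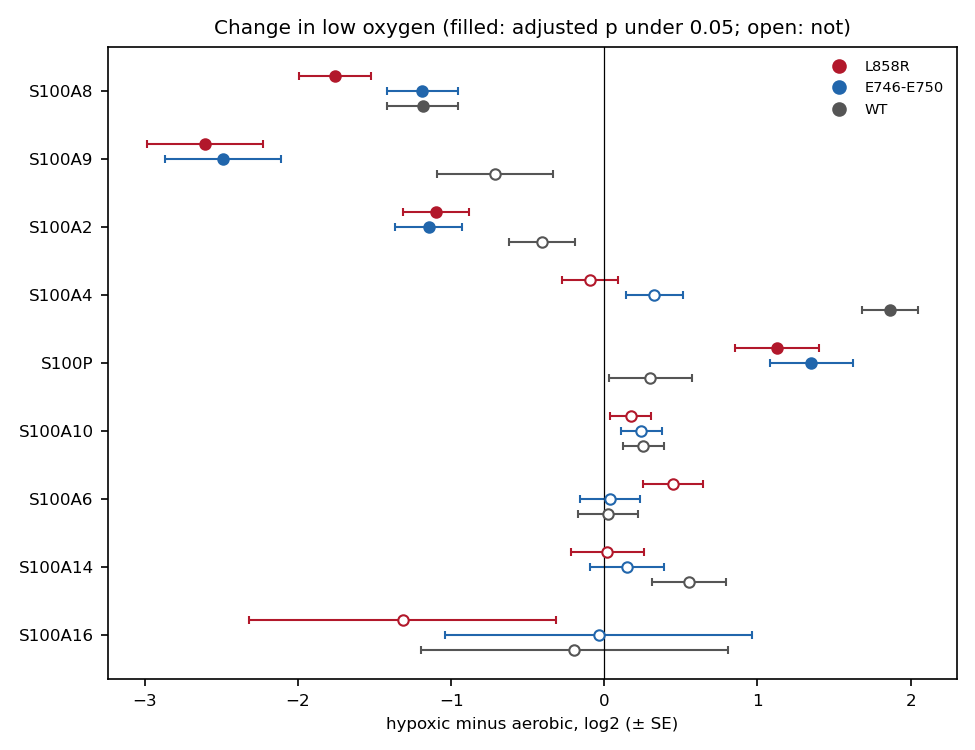
Hypoxic minus aerobic difference on the log2 scale (horizontal axis, with standard error) of each tested S100 gene in L858R, E746-E750 and WT cells; filled points passed limma at adjusted p under 0.05. S100A8 fell in all 3 lines, S100A9 and S100A2 passed in the 2 mutant lines, S100P passed upward in the same 2 lines, and S100A4 passed in WT at 1.87.

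S100A8 and S100A9, the 2 chains of calprotectin, were both lower in hypoxic cells, and S100A8 fell in every line. S100A8 was at 6.68 and 7.29 in hypoxic L858R cells, against 8.61 and 8.88 in aerobic L858R cells. It was at 6.98 and 7.01 in hypoxic E746-E750 cells, against 8.16 and 8.20 in aerobic ones, and at 6.46 and 6.58 in hypoxic WT cells, against 7.45 and 7.97 in aerobic ones. The hypoxic and aerobic pairs did not overlap in any line, and all 6 hypoxic arrays lay below all 6 aerobic arrays. S100A8 fell by 1.76 ± 0.23 log2 (SE, n = 2 arrays per group) in L858R cells, a 3.38-fold drop (limma adjusted p = 0.000911). The fall was 2.28-fold both in E746-E750 cells, at -1.19 ± 0.23 log2 (limma adjusted p = 0.00614), and in WT cells, at -1.19 ± 0.23 log2 (limma adjusted p = 0.0116). The WT call was lost when WT aerobic replicate 2 or either WT hypoxic array was left out, with adjusted p reaching 0.106 and the change between -1.44 and -0.93. In L858R cells the call was lost when only the 4 arrays of that line were fitted (adjusted p = 0.121, in a fit that called 0 of all genes) and with array weights (adjusted p = 0.111). The raw S100A8 intensities of hypoxic L858R replicates 1 and 2 were 156 and 139, the reverse of their order after normalization.

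S100A9 was at 8.02 and 6.91 in hypoxic L858R cells, against 9.88 and 10.27 in aerobic L858R cells. It was at 8.24 and 7.44 in hypoxic E746-E750 cells, against 10.48 and 10.17 in aerobic ones, and at 8.30 and 8.55 in hypoxic WT cells, against 8.98 and 9.29 in aerobic ones. Every hypoxic array again lay below every aerobic one. The 2 hypoxic replicates of each mutant line were farther from each other than those of WT, and replicate 2 was the lower in both mutant lines. S100A9 fell by 2.61 ± 0.38 log2, or 6.10-fold, in L858R cells (limma adjusted p = 0.00143). It fell by 2.49 ± 0.38 log2, or 5.62-fold, in E746-E750 cells (limma adjusted p = 0.00178). In WT cells the difference of -0.71 ± 0.38 log2 did not pass (adjusted p = 0.296), and it passed once hypoxic L858R replicate 1 or 2 was left out of the shared spread (adjusted p = 0.0308 for either). The L858R call was lost when only that line's arrays were fitted (adjusted p = 0.119) and with array weights (adjusted p = 0.0567). The difference between the mutant and WT responses was tested directly: S100A9 gave -1.90 ± 0.54 log2 for L858R (limma adjusted p = 0.0691) and -1.78 ± 0.54 for E746-E750 (limma adjusted p = 0.0884), so neither passed. Without either hypoxic L858R array both passed, for L858R at -2.45 or -1.35 (adjusted p up to 0.0187) and for E746-E750 at adjusted p = 0.00167, where 29.3% to 62.5% and 39.8% of all genes passed.

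Neutrophils and monocytes carry much calprotectin, so myeloid markers were read beside these values. Of 10 listed markers, 6 were detected on at least 2 arrays: CD14 and FCGR3B on all 12, AIF1 on 11, LYZ on 7, and ITGAM and CSF1R on 5 each. PTPRC, CSF3R and TYROBP were detected on 0 arrays and LST1 on 1. The summed raw intensity of the 10, not adjusted for array brightness, was 1290 to 1379 in hypoxic and 1434 to 1495 in aerobic L858R cells, 1513 to 1565 in hypoxic and 1265 to 1383 in aerobic E746-E750 cells, and 1527 to 1661 in hypoxic and 1685 to 1712 in aerobic WT cells. The sum was lower in hypoxic than in aerobic L858R and WT cells and higher in hypoxic than in aerobic E746-E750 cells. On the normalized scale used for S100A8 and S100A9, the median hypoxic minus aerobic difference of the 6 tested markers was 0.36, 0.34 and 0.21 log2 in L858R, E746-E750 and WT cells. Over all genes this median was 0.09, 0.10 and -0.03. Of the 6 markers 1, 1 and 0 rose and 0 fell. Of all genes 16.1%, 16% and 5.37% were called higher and 12.6%, 11.1% and 7.71% lower, so 1 of 6 is near the share of all genes. The part of such cells in the calprotectin values was not tested. Of the calprotectin receptors, TLR4 was detected on 0 arrays and the tested probe of AGER stayed between 6.19 and 6.65, detected on 2 arrays, with no call in any hypoxic or aerobic comparison.

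S100A2, a basal epithelial member that binds p53, had the same order of group means as S100A9, from aerobic E746-E750 at the top through aerobic L858R, aerobic WT, hypoxic WT and hypoxic E746-E750 to hypoxic L858R. For both genes the 2 aerobic mutant pairs overlapped each other, as did the 2 hypoxic mutant pairs, and the other neighbours did not. It was at 11.86 and 12.59 in hypoxic L858R cells, against 13.39 and 13.25 in aerobic L858R cells. It was at 12.28 and 12.31 in hypoxic E746-E750 cells, against 13.50 and 13.38 in aerobic ones, and at 12.50 and 12.71 in hypoxic WT cells, against 13.04 and 12.99 in aerobic ones. All hypoxic arrays lay below all aerobic arrays. S100A2 fell by 1.10 ± 0.22 log2, or 2.14-fold, in L858R cells (limma adjusted p = 0.00633), and by 1.15 ± 0.22 log2, or 2.22-fold, in E746-E750 cells (limma adjusted p = 0.0053). The WT difference of -0.41 ± 0.22 log2 did not pass (adjusted p = 0.297), nor did the mutant response minus the WT response, at -0.69 ± 0.31 for L858R (adjusted p = 0.207) and -0.74 ± 0.31 for E746-E750 (adjusted p = 0.208). Whether the E746-E750 difference passed turned on whether both hypoxic L858R arrays entered the shared spread. With either left out, a larger share of all genes passed as well. The L858R difference was -1.06 without hypoxic L858R replicate 2 and -0.33 without replicate 1. The L858R call was lost without L858R aerobic replicate 1 (adjusted p = 0.0533), with array weights (adjusted p = 0.142) and in a fit of that line's arrays alone (adjusted p = 0.211). The E746-E750 call held in 21 of 21 alternatives, and its change ranged from -1.21 to -0.76.

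S100A4, which binds non-muscle myosin and is known for its part in cell motility, rose in hypoxic WT cells and in neither mutant line. Its brighter probe was at 6.47 and 6.20 in hypoxic L858R cells, against 6.32 and 6.55 in aerobic L858R cells. It was at 7.29 and 6.99 in hypoxic E746-E750 cells, against 6.90 and 6.73 in aerobic ones, and at 8.08 and 8.41 in hypoxic WT cells, against 6.29 and 6.47 in aerobic ones. Hypoxic WT cells came first, then hypoxic and aerobic E746-E750 cells without overlap, and the 2 L858R pairs and the aerobic WT pair overlapped at the bottom. S100A4 is a dim gene here: this probe was detected on 1 of 2 arrays in hypoxic L858R, in aerobic L858R and in aerobic WT cells, and on both arrays of the other 3 groups. S100A4 rose by 1.87 ± 0.18 log2, or 3.65-fold, in WT cells (limma adjusted p = 0.000456), a call kept in 21 of 21 alternatives with changes of 1.42 to 3.91. The change was -0.10 ± 0.18 in L858R cells (adjusted p = 0.723) and 0.33 ± 0.18 in E746-E750 cells (adjusted p = 0.231).

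A second S100A4 probe, whose values correlated with the first at r = 0.940 over 12 arrays that share the groups and lines, was at 6.20 and 6.21 in hypoxic L858R cells, against 6.39 and 6.27 in aerobic ones. It was at 6.81 and 6.71 in hypoxic E746-E750 cells, against 6.53 and 6.54 in aerobic ones, and at 7.21 and 8.31 in hypoxic WT cells, against 6.21 and 6.30 in aerobic ones. Hypoxic WT cells were again the highest pair, with 1.09 log2 between its replicates. This probe was not detected on either aerobic WT array, so its rise was at least 2.55-fold (limma adjusted p = 0.013 over all 21261 kept probes, of which 10.1% were called). A fold is measured from brightness after an offset of 50 was added, which understates changes of dim probes such as these.

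The S100A4 response differed between lines when that difference was itself tested. The L858R response minus the WT response was -1.96 ± 0.26 log2 (limma adjusted p = 0.00396), and the E746-E750 response minus the WT response was -1.54 ± 0.26 log2 (limma adjusted p = 0.0115). S100A4 was the 1 member called in each of these 2 comparisons, with a lower response in the mutant, against 7.76% of all genes for L858R (3.41% lower) and 7.29% for E746-E750 (2.96% lower). The second probe gave -1.63 ± 0.41 (adjusted p = 0.0423) for L858R and -1.28 ± 0.41 (adjusted p = 0.0972) for E746-E750, so the E746-E750 difference did not pass on it; of all kept probes 9.17% and 9.41% were called. The L858R difference kept its call in 20 of 21 alternatives and was lost with limma's array weights, at adjusted p = 0.0769. The E746-E750 difference kept it in 16 of 21, and was lost without WT aerobic replicate 1, E746-E750 aerobic replicate 1, WT hypoxic replicate 2 or E746-E750 hypoxic replicate 2, where adjusted p reached 0.0658, and with the second probe in place of the first (adjusted p = 0.105 over genes). These 2 comparisons share the 4 WT arrays.

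Directly compared under hypoxia, S100A4 was 3.75-fold lower in L858R than in WT cells, at -1.91 ± 0.18 log2 (limma adjusted p = 0.000344). It was 2.15-fold lower in E746-E750 than in WT cells, at -1.10 ± 0.18 log2 (limma adjusted p = 0.00464). The second probe was at least 2.34-fold lower in L858R (adjusted p = 0.00665) and differed by -0.999 ± 0.29 log2 in E746-E750 (adjusted p = 0.0438), where 21.8% and 18.8% of all kept probes were called. S100A4 was the 1 member of 9 called in each comparison, against 21.8% of all genes for L858R (8.14% lower) and 17.8% for E746-E750 (6.33% lower), and both comparisons use the same 2 hypoxic WT arrays. The E746-E750 call was lost without E746-E750 hypoxic replicate 2 (adjusted p = 0.0506). The L858R call was lost when only the 4 arrays compared were fitted and with array weights, with adjusted p up to 0.196. The other members' differences under hypoxia did not pass: S100P was higher by 0.76 ± 0.27 log2 in L858R (adjusted p = 0.079) and by 0.85 ± 0.27 in E746-E750 (adjusted p = 0.0644), and S100A9 was at -0.96 ± 0.38 in L858R (adjusted p = 0.102) and -0.59 ± 0.38 in E746-E750 (adjusted p = 0.334). Without hypoxic L858R replicate 1 the L858R differences of S100P and S100A9 were 1.26 and -1.52, and without replicate 2 they were 0.26 and -0.41. The E746-E750 difference of S100P stayed at 0.85, and whether it passed turned on whether both of those arrays entered the shared spread. With either left out, a larger share of all genes passed as well.

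**Figure D3:**
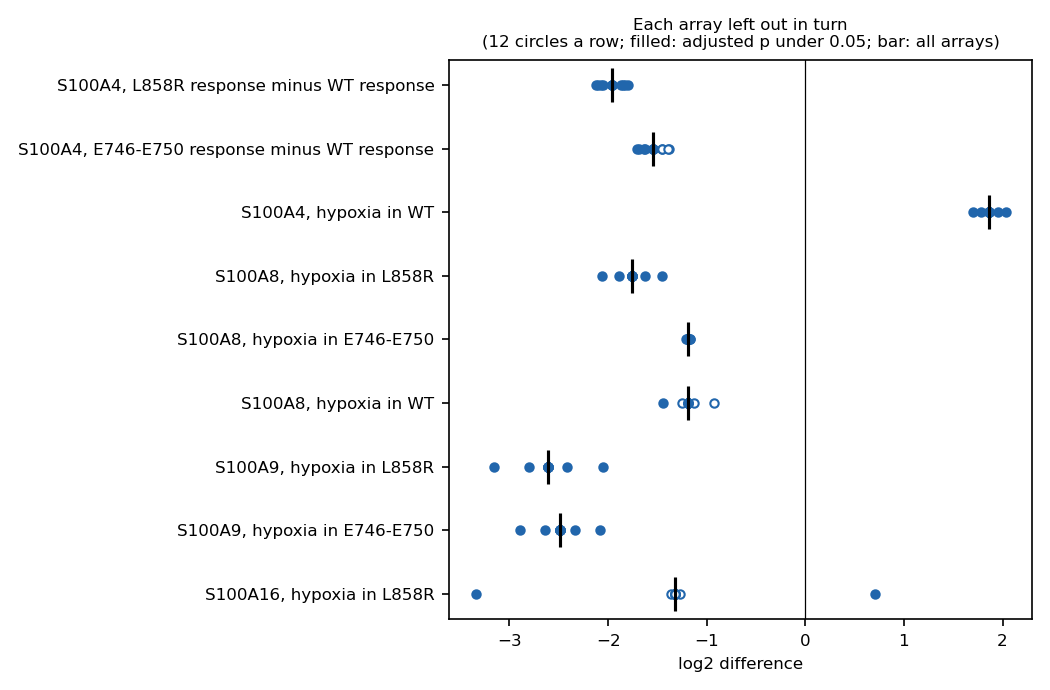
Log2 differences (horizontal axis) of S100A4, S100A8, S100A9 and S100A16 with each of the 12 arrays left out in turn (circles, filled where limma's adjusted p was under 0.05) and with all arrays (bars). S100A4 in WT cells stayed between 1.70 and 2.03, the S100A8 and S100A9 changes kept their direction, and S100A16 in L858R cells ranged from -3.34 to 0.71 with replicate 1 or 2 of hypoxic L858R left out.

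S100P, a secreted and cytoplasmic member that binds ezrin and AGER, was detected on the 6 hypoxic arrays and on 0 aerobic arrays, so it entered the test through the groups where it was high. It was at 6.79 and 7.80 in hypoxic L858R cells, against 6.22 and 6.11 in aerobic L858R cells. It was at 7.28 and 7.48 in hypoxic E746-E750 cells, against 6.002 and 6.06 in aerobic ones, and at 6.52 and 6.55 in hypoxic WT cells, against 6.22 and 6.25 in aerobic ones. The hypoxic pair was above the aerobic pair in each line, and hypoxic WT was the lowest of the hypoxic pairs. S100P rose at least 1.88-fold in L858R cells (fitted 1.13 ± 0.27 log2, limma adjusted p = 0.0154) and at least 1.90-fold in E746-E750 cells (fitted 1.35 ± 0.27 log2, limma adjusted p = 0.00699). In WT cells it was at least 1.09-fold higher, which did not pass (fitted 0.30 ± 0.27 log2, adjusted p = 0.59). The mutant response minus the WT response did not pass, at 0.83 ± 0.38 log2 for L858R (adjusted p = 0.228) and 1.05 ± 0.38 for E746-E750 (adjusted p = 0.154). Whether the E746-E750 difference passed turned on whether both hypoxic L858R arrays entered the shared spread. With either left out, a larger share of all genes passed as well. The L858R difference was 1.33 without hypoxic L858R replicate 1 and 0.32 without replicate 2. The L858R call held in 16 of 20 alternatives and was lost without either aerobic L858R array (adjusted p up to 0.0939), with array weights (adjusted p = 0.119) and with that line's arrays alone (adjusted p = 0.264). The E746-E750 call held in 18 of 20 and was lost without E746-E750 aerobic replicate 1 or hypoxic replicate 2 (adjusted p up to 0.0585). Without hypoxic L858R replicate 2 the L858R change was 0.62 in place of 1.13. The raw S100P intensities of hypoxic L858R replicates 1 and 2 lay close together, at 167 and 176. Replicate 2 was the dimmer array, with an upper quartile of 128 against 193. The gap between 6.79 and 7.80 thus appeared with background removal and normalization.

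S100A10, the calcium-insensitive member that joins annexin A2 at the cell surface and promotes plasmin formation, was near the top of the scale, which ended at 14.72. Its brighter probe was at 14.50 and 14.59 in hypoxic L858R cells, against 14.45 and 14.31 in aerobic ones. It was at 14.52 and 14.68 in hypoxic E746-E750 cells, against 14.33 and 14.39 in aerobic ones, and at 14.51 and 14.52 in hypoxic WT cells, against 14.16 and 14.36 in aerobic ones. The hypoxic pair was the higher one in every line, by 0.17 ± 0.13 log2 in L858R, 0.24 ± 0.13 in E746-E750 and 0.26 ± 0.13 in WT, and none of these passed (adjusted p = 0.359, 0.215 and 0.279). The other S100A10 probe correlated with it at r = 0.865 over 12 arrays and gave 0.24 ± 0.11 in L858R (adjusted p = 0.15), 0.37 ± 0.11 in E746-E750 (adjusted p = 0.0431) and 0.46 ± 0.11 in WT (adjusted p = 0.0364). On that probe the rises in E746-E750 and WT passed, against 26.1% and 10.1% of all kept probes (27.3% in L858R), so the 2 probes of S100A10 differ on the call and give the same direction.

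ANXA2, the partner of S100A10, has 3 kept probes that disagreed. Its brightest probe lay between 14.34 and 14.72 on the 12 arrays, at the end of the scale on 1 of them, where the scale limits any difference, and none of its differences passed. Another probe was at 8.50 and 6.89 in hypoxic L858R cells, against 13.25 and 13.08 in aerobic ones, and at 7.90 and 7.61 in hypoxic E746-E750 cells, against 12.96 and 13.02 in aerobic ones. On it hypoxic WT cells were at 12.43 and 12.47, against 12.51 and 12.55 in aerobic WT cells. The third probe was at 9.87 and 10.69 in hypoxic L858R cells, against 10.89 and 10.73 in aerobic ones, and at 9.85 and 9.95 in hypoxic E746-E750 cells, against 10.55 and 10.59 in aerobic ones. Its differences of -0.53 ± 0.23 log2 in L858R (adjusted p = 0.129), -0.67 ± 0.23 in E746-E750 (adjusted p = 0.0675) and 0.14 ± 0.23 in WT (adjusted p = 0.843) did not pass. The probes of this 1 gene thus moved apart in the 2 hypoxic mutant groups, where the share of two-probe genes lying apart was also high; what sets them apart was not tested.

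S100A16, a widely expressed member, turned on 1 array. It was at 11.96 and 7.90 in hypoxic L858R cells, against 11.20 and 11.29 in aerobic L858R cells. It was at 11.93 and 11.13 in hypoxic E746-E750 cells, against 11.57 and 11.56 in aerobic ones, and at 11.14 and 11.21 in hypoxic WT cells, against 11.39 and 11.36 in aerobic ones. The low value belongs to replicate 2 of hypoxic L858R, the array that stood apart, and the 10 arrays outside hypoxic L858R lay between 11.13 and 11.93. In hypoxic E746-E750 cells replicate 2 was also the lower one, at 11.13 against 11.93. No difference of S100A16 passed: the hypoxic L858R change was -1.32 ± 1.00 log2 (adjusted p = 0.353). Without replicate 2 it was 0.71 (adjusted p = 0.0272), and without replicate 1 it was -3.34, so its direction cannot be given from these arrays.

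S100A14, an epithelial member, was at 10.45 and 9.64 in hypoxic L858R cells, against 10.13 and 9.92 in aerobic ones, a change of 0.02 ± 0.24 log2 that was 0.43 without replicate 2 (adjusted p = 0.0338) and -0.38 without replicate 1 (adjusted p = 0.0357). It was at 10.56 and 10.65 in hypoxic E746-E750 cells, against 10.36 and 10.54 in aerobic ones, and at 10.49 and 10.33 in hypoxic WT cells, against 9.94 and 9.77 in aerobic ones. The WT pairs did not overlap, but the WT difference of 0.55 ± 0.24 log2 did not pass (adjusted p = 0.191). S100A6, which binds the ubiquitin ligase component CACYBP, was at 13.38 and 14.02 in hypoxic L858R cells, against 13.26 and 13.24 in aerobic ones, and all its other arrays lay between 13.40 and 13.62. Its change was 0.45 ± 0.20 log2 in L858R (adjusted p = 0.119), 0.04 ± 0.20 in E746-E750 (adjusted p = 0.918) and 0.03 ± 0.20 in WT (adjusted p = 0.962). The L858R change was 0.77 without hypoxic replicate 1 and 0.13 without replicate 2. S100A7, the psoriasin of squamous and inflamed skin, stayed between 5.92 and 6.19 on all arrays, not well above background, and gives no fold.

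In aerobic cells, no member differed between a mutant line and WT in limma's test. Among all genes 0.0252% were called for L858R and 0.277% for E746-E750, so few genes of any kind passed. At an unadjusted p under 0.05 there were 2 members for L858R and 3 for E746-E750, beside 5.51% and 7.73% of all genes. S100A8 was at 8.61 and 8.88 in aerobic L858R cells and at 8.16 and 8.20 in aerobic E746-E750 cells, against 7.45 and 7.97 in aerobic WT cells, so both mutant pairs lay above the WT pair after normalization. In raw intensity the L858R pair, 473 and 625, lay above the WT pair, 255 and 346. The raw E746-E750 pair, 266 and 319, overlapped it, on arrays that were dimmer as a whole. The normalized S100A8 difference was 1.03 ± 0.23 log2 for L858R (unadjusted p = 0.00178 in limma, adjusted p = 0.22) and 0.47 ± 0.23 for E746-E750 (adjusted p = 0.741). S100A9 gave 0.93 ± 0.38 for L858R (adjusted p = 0.827) and 1.19 ± 0.38 for E746-E750 (adjusted p = 0.348), and again both mutant pairs lay above WT. S100A14 and S100A4 were higher in aerobic E746-E750 than in aerobic WT cells by 0.60 ± 0.24 (adjusted p = 0.568) and 0.44 ± 0.18 (adjusted p = 0.6), neither of which passed. Fits in which the hypoxic L858R spread did not enter called more: with only the 4 arrays compared, S100A2, S100A8 and S100A9 passed for L858R and S100A2, S100A4, S100A8, S100A9 and S100A14 for E746-E750, in fits that called 16.4% and 22.4% of all genes.

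**Figure D4:**
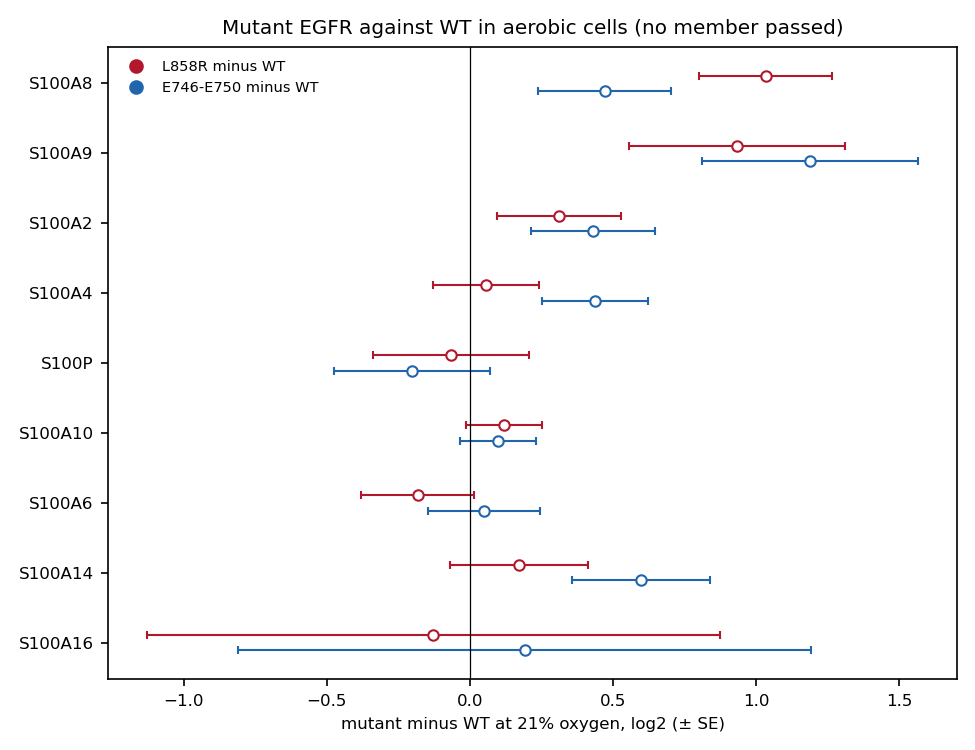
Mutant minus WT difference at 21% oxygen on the log2 scale (horizontal axis, with standard error) for each tested S100 gene in L858R and E746-E750 cells; open points did not pass limma's test. No point is filled, and S100A8 at 1.03 in L858R and S100A9 at 1.19 in E746-E750 lie farthest above 0.

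The members formed no single pattern across the 12 arrays. All 6 hypoxic arrays lay below all 6 aerobic arrays for 3 members (S100A2, S100A8 and S100A9) and above them for S100A10, while 19.6% of all genes tested were free of overlap, 9.29% below and 10.3% above. S100P also lay above on all hypoxic arrays, but it passed the detection filter through the hypoxic groups, so its place here is partly fixed by that filter. The Pearson correlation over 12 arrays, which share lines, oxygen and array quality, was 0.783 between S100A8 and S100A9, 0.847 between S100A2 and S100A9 and 0.835 between S100A2 and S100A8. Without hypoxic L858R replicate 2 these were 0.873, 0.922 and 0.834. S100P ran opposite to S100A9, at -0.912 over 12 arrays and -0.877 over 11. The correlation of -0.839 between S100A6 and S100A16 was -0.08 over the 11 arrays and so rested on that 1 array.

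The genes most like each member were taken among tested genes with an SD of at least 0.5 log2 over the 12 arrays, by Pearson correlation, given with its value over the 11 arrays without hypoxic L858R replicate 2. For S100A4 they were H19 at 0.935 (0.934), a long non-coding RNA, MIR210 at 0.900 (0.907), whose microRNA is known to be induced by low oxygen, and SLC5A3 at 0.896 (0.886), the inositol transporter. For S100A8 they were DKK1, a secreted Wnt inhibitor, at 0.952 (0.953), TTF2 at 0.951 (0.969) and CDCA7 at 0.947 (0.947). For S100A9 they were THBS1, thrombospondin, at 0.973 (0.963), VPS25 at 0.971 (0.974) and TMEM109 at 0.965 (0.951). For S100A2 they were PAQR4 at 0.987 (0.988), GEMIN6 at 0.981 (0.985) and LMNA, the nuclear lamin gene, at 0.977 (0.977), and for S100P they were DCP1A, an mRNA decapping factor, at 0.991 (0.985), NCS1 at 0.988 (0.981) and VAMP1 at 0.984 (0.973). These are the highest of 3510 candidates, or of 3511 for a member whose own SD is lower, and the arrays share lines and oxygen. For S100A10 the nearest were MASTL, PLK4 and CLK4 at 0.931 to 0.909, and for S100A14 TYMS, ITM2C and CBX1 at 0.894 to 0.867. The nearest to S100A6 (SPAG1, CRBN and TPT1-AS1) and to S100A16 (BCAP31, NDUFV1 and APP) lost much of their likeness over the 11 arrays, SPAG1 at 0.928 (0.752) and APP at 0.980 (0.680).

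Of 16 listed partners and receptors 13 were tested; 2 rose and 1 fell in hypoxic L858R cells, 1 rose and 1 fell in hypoxic E746-E750 cells, and 0 passed in WT cells, against 28.7%, 27.1% and 13.1% of all genes. These shares of the list are not above those of all genes. In WT cells AHNAK, CACYBP and IQGAP1, of the 13 tested, had an unadjusted p under 0.05 in limma, at 0.58 ± 0.20, -0.87 ± 0.31 and 0.61 ± 0.17. At that threshold 3069 of all 11926 genes passed in WT cells, so the list does not stand out there either. CACYBP, the S100A6-binding protein, fell in both mutant lines, at -3.95 ± 0.31 log2 in L858R (limma adjusted p = 8.03e-05) and -4.34 ± 0.31 in E746-E750 (limma adjusted p = 4.46e-05). Its other kept probe was not detected in either hypoxic mutant group and gives only a bound there, at least 1.21-fold lower in L858R (adjusted p = 0.0236) and at least 1.28-fold lower in E746-E750 (adjusted p = 0.0291). IQGAP1, a scaffold bound by S100P and S100B, rose by 1.47 ± 0.17 in L858R (limma adjusted p = 0.000545) and by 1.46 ± 0.17 in E746-E750 (limma adjusted p = 0.000502), and EZR, the ezrin that S100P binds, rose by 0.47 ± 0.15 in L858R (limma adjusted p = 0.0486). On the brightest CACYBP probe the mutant response minus the WT response passed, at -3.08 ± 0.44 for L858R (limma adjusted p = 0.00565) and -3.47 ± 0.44 for E746-E750 (limma adjusted p = 0.00357). On the other CACYBP probe it did not pass, at -0.69 ± 0.27 (limma adjusted p = 0.166) and -0.65 ± 0.27 (limma adjusted p = 0.207). That probe was undetected in both hypoxic mutant groups, which limits these values. For IQGAP1 the response difference did not pass (adjusted p = 0.0718 and 0.0778). The median of the list's 13 members was -0.18, -0.04 and -0.04 log2 in hypoxic L858R, E746-E750 and WT cells.

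Some genes of the squamous epithelium and of mucosal defence rose in hypoxic cells, and most of the defence genes did not pass. Of 23 epidermal differentiation genes, many of which lie near the S100 genes on chromosome 1, 8 were tested; 5 rose in hypoxic L858R cells, 4 in E746-E750 and 3 in WT, and 0 fell, where 16.1%, 16% and 5.37% of all genes were called higher. LCE1B, a late cornified envelope protein, was higher by 4.03 ± 0.20, 3.36 ± 0.20 and 2.13 ± 0.20 log2 in L858R, E746-E750 and WT, each called by limma. FLG, filaggrin, was higher by 3.54 ± 0.29 in L858R and 2.50 ± 0.29 in E746-E750, both called, and its WT difference of 0.43 ± 0.29 did not pass. The list's median was 1.17, 0.56 and 0.38 log2, beside 0.09, 0.10 and -0.03 for all genes. Of 20 antimicrobial and inflammatory genes 11 were tested; 2 rose in L858R, 3 in E746-E750 and 5 in WT, and 0 fell, against the same shares, so the L858R count is near that of all genes; the list's median was 0.20, 0.26 and 0.26 log2. LCN2, lipocalin-2, an iron-binding defence protein, rose by 3.45 ± 0.21 in L858R and 2.10 ± 0.21 in E746-E750, and its WT difference of 0.26 ± 0.21 did not pass. CXCL8, the neutrophil chemokine, rose by 2.54 ± 0.55 in L858R and 2.30 ± 0.55 in WT, and its E746-E750 difference of 1.12 ± 0.55 did not pass. PI3, an epithelial protease inhibitor, rose by 1.24 ± 0.17 in E746-E750 and by 2.30 ± 0.17 in WT, and its L858R difference of 0.40 ± 0.17 did not pass. Of the calmodulin-like EF-hand genes 8 were tested: 3 rose and 2 fell in L858R, 2 rose and 2 fell in E746-E750, and 1 fell in WT, against 28.7%, 27.1% and 13.1% of all genes in either direction, with SRI, sorcin, at -1.74 ± 0.32 in L858R and -2.30 ± 0.32 in E746-E750.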

How the data were processed

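Total RNA from 12 HBEC samples, 2 in each of 6 groups, was amplified to biotin-labelled cRNA and hybridised to the arrays of 1 Illumina chip. The deposited raw table holds linear intensities of 47323 probes, and the authors' processed table holds log2 values with a median of 3.11 on each array; how its background was treated is not stated in the labels. Background was removed from the raw values by limma's normexp with an offset of 50, followed by log2 and quantile normalization between arrays (limma 3.58.1, R 4.3.3). To define detection, the lower side of each array's noise peak was reflected at its mode (density bandwidth 0.02 log2) and percentile 99 of the result was the limit; probes detected on at least 2 arrays were kept, 21261 in all. The platform annotation gave 30121 probes 1 or more genes; 8 with several and 17202 without a gene were not named. Each gene took its probe with the highest mean. A model with 6 group means and 6 residual degrees of freedom was fitted with lmFit and eBayes over 11926 genes, with two-sided p-values adjusted by Benjamini-Hochberg within each of 9 contrasts; second probes came from the same model over all kept probes. The number of arrays limits the precision, and arrays give no read depth. A probe below detection on both arrays of a group has only a bound there, and its fold is given as at least N-fold against the lowest detected signal of those arrays. The fit was checked on simulated data.

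Named were all members, up to 3 called genes of each list, ANXA2, AGER, TLR4, NDRG1, VEGFA, EGFR, and the 3 genes most correlated with each member; S100A13, S100A11 and AHNAK were named after their values were seen. The members and lists were chosen with earlier results of these data known. CA9 was not analysed here. Alternatives covered background, normalization, the authors' values, filters, probe choice, arrays fitted, a block for the replicate number, limma's array weights and omission of each array. The labels tie nothing to a replicate number. The deviations of same-numbered arrays correlated at 0.758 between hypoxic L858R and hypoxic E746-E750 cells. All other pairs of groups lay between -0.174 and 0.163. The hypoxic mutant groups thus shared a replicate deviation, so their changes are not wholly separate observations. What links these arrays was not tested.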

Additional observations from a re-analysis of the deposited data

Results flagged for a closer look

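S100A4 responded differently to low oxygen in the mutant and WT lines by a test of the difference itself. The L858R response minus the WT response was -1.96 log2, and the E746-E750 response minus the WT response was -1.54 log2. S100A4 was detected on 9 of 12 arrays with its brighter probe and on 7 with the other, and both comparisons share the 4 WT arrays.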

How the results depend on the processing

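Counts of members called moved with the arrays that shared the estimate of spread. With only the arrays compared, 6 members were called for hypoxia in WT, 0 for hypoxia in L858R, 3 and 5 for aerobic L858R and E746-E750 against WT, 0 and 3 for hypoxic L858R and E746-E750 against WT, and 4 for the E746-E750 response minus the WT response. Of all genes, these fits called 16.4% and 22.4% in the aerobic comparisons and 0% and 37.4% in the hypoxic ones. For the E746-E750 response difference they called 35.3%. With array weights 6 were called for hypoxia in WT, 0 for hypoxia in L858R, 3 and 5 for the aerobic comparisons, 0 and 2 for the hypoxic comparisons, and 0 and 4 for the L858R and E746-E750 responses minus the WT response. Of all genes, the weighted fit called 15.5% and 19.9% in the aerobic comparisons and 1.32% and 41.7% in the hypoxic ones. For the response differences it called 1.73% and 37.4%. Median centring gave 3 and 2 for hypoxic L858R and E746-E750 against WT and 2 for each response difference, and under it the median over all genes was 0.48 in place of 0.15 for the E746-E750 response difference and -0.22 in place of -0.02 for aerobic E746-E750 against WT. Of all genes, median centring called 24.4% and 26.7% in the hypoxic comparisons and 10.4% and 26% in the response differences. The authors' values gave 2 for each hypoxic mutant comparison, where 20.6% and 17% of all genes were called. Requiring detection on all arrays leaves out S100A4 and S100P, and gave 1 for hypoxia in WT and 0 for both hypoxic mutant comparisons and both response differences. Of all genes, this filter called 16.4% for hypoxia in WT, 23.1% and 18.7% in the hypoxic comparisons and 7.41% and 6.4% in the response differences. S100A4 was the only member called in the hypoxic comparisons and response differences with all probes kept, so the counts of 0 there say nothing about it. With 1 array left out, the counts ranged from 1 to 6 for hypoxia in WT, 2 to 7 in L858R and 3 to 4 in E746-E750, 0 to 2 and 0 to 3 for aerobic L858R and E746-E750 against WT, 1 to 7 and 0 to 4 for the hypoxic comparisons, and 1 to 6 and 0 to 4 for the response differences. Except for hypoxia in E746-E750, the high ends came without a hypoxic L858R array. In every comparison those fits also called a larger share of all genes than the fit of all arrays. The high counts are therefore not particular to the members. The share of all genes called moved with these settings too: for hypoxia in WT it was 41.5% with only the arrays compared, 42.8% with array weights and 40.3% without a hypoxic L858R array, in place of 13.1%, and for hypoxia in L858R it was 0%, 4.7% and 46.9% to 70.4%, in place of 28.7%. With the replicate block the counts were those given in the report: 4, 4 and 2 for hypoxia in L858R, E746-E750 and WT, 0 in both aerobic comparisons and 1 in each of the other 4.

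Among single members, 1583 values under the alternatives were as before in being called or not, 89 gained a call and 25 lost one. A further 4 were called in the opposite direction. Values that were not called could change sign within the 1583. S100A4 for hypoxia in L858R, for one, went from -0.10 to 0.04 without hypoxic L858R replicate 2. S100A14 for hypoxia in L858R ranged from -0.38 to 0.43 with 1 array left out. S100A16 with 1 array left out ranged from -3.34 to 0.71 for hypoxia in L858R, from -3.28 to 0.78 for hypoxic L858R against WT and from -3.15 to 0.91 for the L858R response minus the WT response; the ends came without hypoxic L858R replicate 1 and replicate 2. The other probe of S100A4 and S100A10 was added as an alternative after seeing the data. Brightness limits S100A4, S100P and S100A7, which lay at or near background in several groups.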

Other observations

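Of 10 further S100 genes, 3 were tested. S100A3, a member known from hair cuticle, was at 7.60 and 8.86 in hypoxic L858R cells, against 9.77 and 9.64 in aerobic ones, and at 8.13 and 8.24 in hypoxic E746-E750 cells, against 9.79 and 9.67 in aerobic ones. In WT cells it was at 8.96 and 8.53 under hypoxia, against 9.89 and 9.80 in aerobic cells, so it was lower under hypoxia in each line without overlap. The change was -1.47 ± 0.34 log2 in L858R (limma adjusted p = 0.0132) and -1.54 ± 0.34 in E746-E750 (limma adjusted p = 0.0108) and was called in both, and the WT difference of -1.10 ± 0.34 did not pass (adjusted p = 0.0722). S100A11 differed by 0.15 ± 0.28 in L858R, -0.02 ± 0.28 in E746-E750 and -0.07 ± 0.28 in WT, none of which passed. S100A13 had 5 kept probes that disagreed in WT cells, where their differences ranged from -0.12 to 0.72 and none passed. Of all kept probes 27.3% and 26.1% were called between hypoxic and aerobic L858R and E746-E750 cells. In both lines 1 of the 5 was called, lower under hypoxia, at -0.50 ± 0.12 in L858R (limma adjusted p = 0.0145) and -0.41 ± 0.12 in E746-E750 (limma adjusted p = 0.0349). That probe lay near background. It was detected on 0 hypoxic and 1 aerobic L858R arrays, and on 0 hypoxic and 0 aerobic E746-E750 arrays, so it gives no fold. The brightest S100A13 probe did not pass. Under hypoxia 3 of the 5 were called lower in L858R than in WT cells and 2 of the 5 in E746-E750 than in WT cells. Of all kept probes 21.8% and 18.8% were called in these comparisons. The 2 called for E746-E750 lay near background and were not detected in either hypoxic mutant group.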
